A study of Homo sapiens with 32 samples.

Results

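The mock libraries of an N4-acetylcytidine (ac4C) mapping experiment in Hep3B cells, a human hepatocellular carcinoma line, were compared between NAT10-deficient and NAT10-competent genotypes. Mock RNA went through acid and reverse transcription without sodium cyanoborohydride (NaCNBH3), the agent that reduces ac4C. Mismatches in these libraries were therefore read as arising without chemical reduction. The methods give the libraries as pooled for sequencing, and carry-over of reads from reduced libraries was not tested. The 16 mock libraries of the 32 libraries in the series were chosen by title, 2 replicates for each of 8 genotypes. The 12 NAT10-deficient libraries came from 6 genotypes. All 6 carried the FKBP degron on endogenous NAT10, which the study tagged at both alleles. FKBP cells had no transduction, NAT10(-) cells received a control plasmid that the methods give as YFP, and the others received NAT10 with 1 substitution, K290A or E389L in the helicase domain or H537A or G641E in the acetyltransferase (GNAT) domain. The 4 NAT10-competent libraries were NAT10-WT, the same tagged cells given unmutated NAT10, and Wildtype, the untagged and untransduced parental line. All cells of both classes were kept for 24 h in 100 nM dTAGV1, which degrades the tagged protein, and transduced cells were first selected with 5 µg/ml blasticidin for 5 days. The add-back copies were lentiviral and driven by an EF1A promoter rather than by the promoter of NAT10.

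NAT10 is the only known human RNA cytidine acetyltransferase. It places ac4C at a pair of sites in 18S rRNA and, with the adaptor THUMPD1, in the D arm of leucine and serine tRNAs, in each case at the middle base of a CCG triplet. Reverse transcriptases pass most modified bases without error, but a modified base that pairs less well leaves a share of misread cDNAs, and reduction of ac4C is used because it raises that share strongly. In the unreduced RNA the question was which positions still carried a mismatch linked to the NAT10 genotype, in all 12 mismatch types, and which RNAs differed in relative depth. The sites on which the results turn are shown as 21 bases of the hg38 genome on the + strand of scaffold GL000220.1, in the 45S gene RNA45SN5, in the part that encodes 18S rRNA. Capitals mark the CCG triplet whose middle C is the site, or the T that encodes U1248:
18S C1337, at GL000220.1:110404-110424: ggtgcatggCCGttcttagtt
18S C1842, at GL000220.1:110909-110929: acaaggtttCCGtaggtgaac
18S C1317, at GL000220.1:110384-110404: ttctcgattCCGtgggtggtg
18S U1248, at GL000220.1:110315-110335: ttaatttgacTcaacacggga
The first pair are the known ac4C sites of 18S rRNA. C1317 lies 20 bases before C1337 in the same triplet. U1248 carries the hypermodified pseudouridine m1acp3Ψ, which other enzymes make, and was read beside them.

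Deficient libraries held 1263 to 1732 Mb (megabases) of base calls and competent libraries 1366 to 1453 Mb, over 400284 to 3735165 and 463897 to 684764 positions with at least 30 reads. The highest number of positions was that of K290A replicate 1. Among 14 hepatocyte marker genes, 8 to 13 had listed positions in deficient libraries and 8 to 10 in competent libraries, 7 of them (ALB among them) in all 16 libraries, and APOC3 in none. None of 3 endothelial or 5 erythroid markers was listed in any library, and LUM was the only fibroblast marker and LYZ the only leukocyte marker listed in any. NAT10 RNA itself was listed at none of its 3973 exonic positions in FKBP, NAT10(-) or Wildtype libraries. It was listed at 3110 and 1441 positions in K290A, at 2758 and 615 in H537A, at 3028 and 2765 in G641E, and at 907 and 518 in NAT10-WT libraries. Libraries labelled E389L listed 0 and 0 NAT10 positions, although replicate 1 held 1633904 positions in all. Where the mutated codon was listed in mock libraries it carried the labelled change: the major bases of the H537A codon encoded alanine in H537A replicate 1, with 97.3% non-reference bases at each of its 3 positions, and those of the G641E codon encoded glutamate in both G641E libraries, with 98.4% and 94.9% at the changed base. The mutated codon was not listed in the K290A libraries, so RNA gave no check of the labels K290A and E389L.

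In the RNA of NAT10-deficient cells, C>T mismatches at 18S C1337 and C1842 were lower than in NAT10-competent cells, and no other of the positions tested passed the threshold. At C1337, T made up 0.157% of reads in the lowest deficient library, 0.226% at the median and 0.312% in the highest. It made up 1.50% and 0.874% in NAT10-WT and 1.44% and 1.37% in Wildtype libraries. The classes did not overlap, and the lowest competent library, NAT10-WT replicate 2, was above the highest deficient library, NAT10(-) replicate 1. The means were 0.225% ± 0.0521 in deficient and 1.30% ± 0.287 in competent libraries (SD, n = 12 and 4). The log2 odds ratio, deficient minus competent, was -2.53 (SE 0.19, 95% confidence interval -2.93 to -2.13), with an adjusted p of 1.03e-06 by limma with Benjamini-Hochberg adjustment over all pairs. An exact two-sided permutation test of the shares over the 1820 splits of 16 libraries gave p = 0.0011, the smallest that it can give. The splits took single libraries as units, although the class is set by the genotype, with 6 deficient and 2 competent genotypes. This p thus treats replicates of a genotype as independent, here and at the other positions. With genotype as a random block (consensus correlation 0.023 over all pairs), limma adjusted p was 1.2e-06 here and 0.000245 at C1842. At so low a correlation this fit is close to the one without the block, so it does not make the genotype the unit.

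At C1842, the other known site, the deficient libraries had 0.0254% T at the lowest, 0.0906% at the median and 0.186% at the highest. NAT10-WT libraries had 0.879% and 0.542%, and Wildtype libraries had 1.24% and 1.09%. Again no deficient library reached the lowest competent one. The mean was 0.102% ± 0.0490 in deficient libraries and 0.938% ± 0.304 in competent libraries, a log2 odds ratio of -3.14 (SE 0.36, 95% confidence interval -3.91 to -2.38, limma adjusted p = 0.000224), and the exact permutation p was again 0.0011. Depth was lower here, 2250 to 7879 reads a library against 19540 to 19874 at C1337, and a deficient library rested on 1 to 13 T reads. Its Clopper-Pearson 95% interval was 0.000643% to 0.142% in FKBP replicate 2, the lowest, against 0.382% to 0.746% in NAT10-WT replicate 2, the lowest competent library. Such intervals cover counting error only. The deficient genotypes were not set against each other by a test. At this depth the replicates of 1 genotype could lie far apart, as in K290A with 0.0889% and 0.186%. At C1337 the genotype means ran over a narrow range, 0.162% in G641E, 0.194% in H537A, 0.223% in K290A, 0.231% in FKBP, 0.252% in NAT10(-) and 0.290% in libraries labelled E389L.

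**Figure D1:**
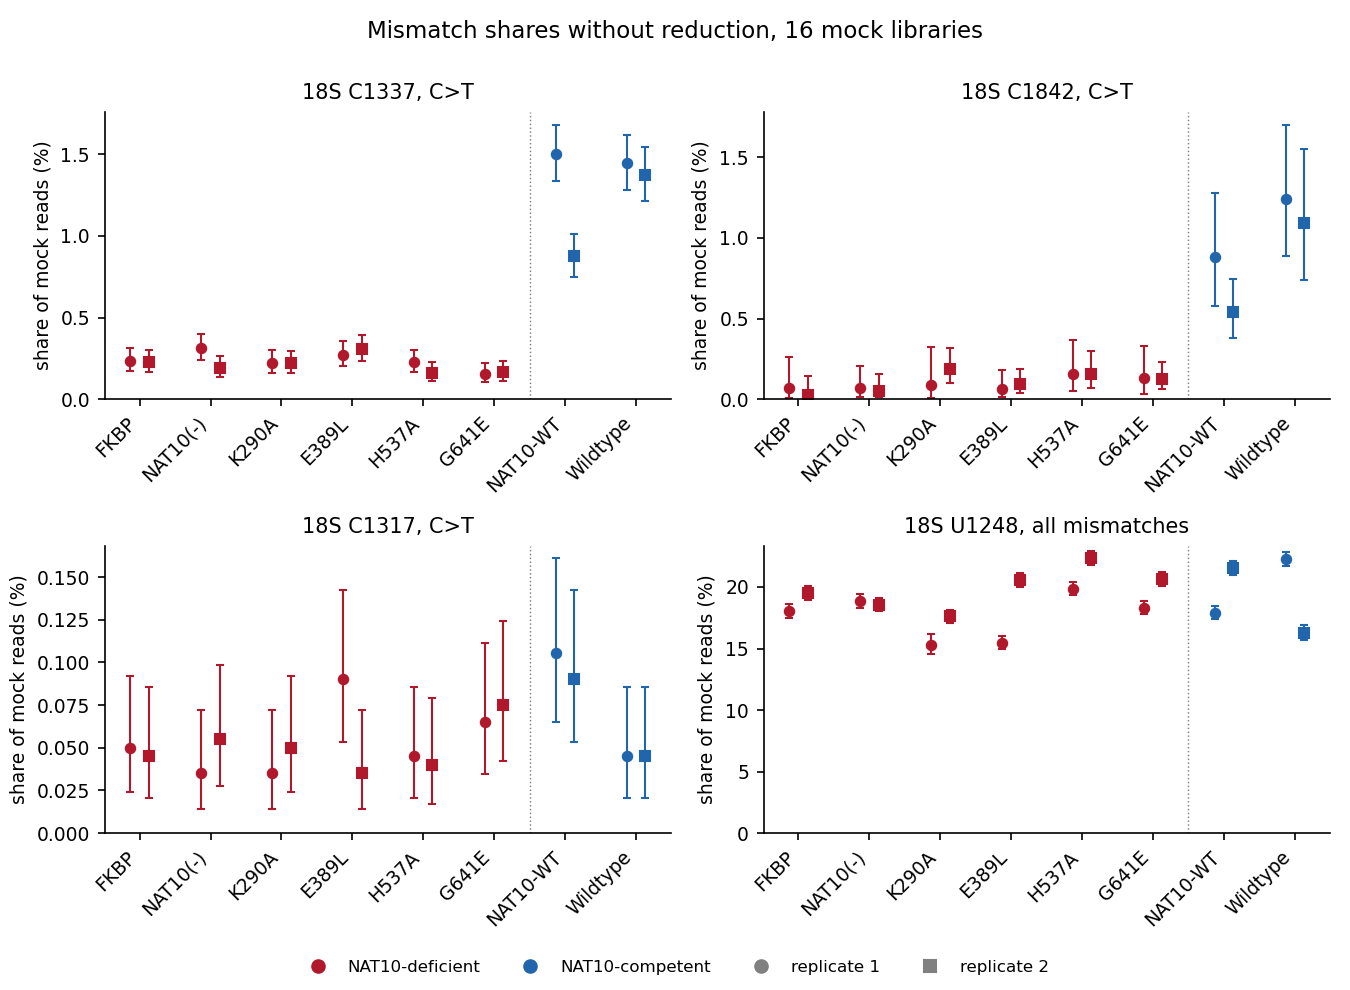
Share of mock reads with the mismatch (%) by genotype at 4 positions of 18S rRNA. Points are libraries, circles replicate 1 and squares replicate 2, bars are Clopper-Pearson 95% intervals, and the dotted line divides the 12 deficient from the 4 competent libraries. At C1337 the deficient libraries lie between 0.157% and 0.312% and the competent ones between 0.874% and 1.50%. At C1317 and U1248 the classes overlap.

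The other mismatch types at the called cytidines were low in both classes. At C1337, C>A averaged 0.0140% in deficient and 0.0114% in competent libraries, and C>G 0.00423% and 0.00127%. At C1842, C>A averaged 0.00976% in deficient and 0.00732% in competent libraries, and C>G 0.00146% and 0% (0 of 15789 reads in the 4 competent libraries, which allows a share of up to 0.0190%). All of these class ranges overlapped. Within the competent class, NAT10-WT averaged 1.19% and Wildtype 1.41% at C1337, a log2 odds ratio of -0.30 (limma adjusted p = 0.824), and at C1842 0.710% and 1.17%, a log2 odds ratio of -0.76 (adjusted p = 0.633), neither of which passed the threshold with 2 libraries each.

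The whole of 18S rRNA gave the background for these values. Of 493 cytidines read in all 16 libraries, C>T shares did not overlap between classes at 2, both lower in deficient libraries (0.406% of cytidines) and both the sites above. None was higher. The median of the other cytidines was 0.0461% in deficient and 0.0413% in competent libraries, and the 95th percentile in deficient libraries was 0.0865%, below the 0.225% that remained at C1337. C1337 ranked 14 from the top in deficient and 4 in competent libraries, and C1842 ranked 22 and 7. The site with the most C>T was neither of them but C797, with 5.76% in deficient and 5.59% in competent libraries. At the 50 other CCG cytidines of 18S rRNA the highest mean was 0.956% in deficient and 0.891% in competent libraries, and none was free of overlap. Over all RNAs, 44 C>T pairs at a CCG triplet were tested and 5 had an unadjusted p under 0.05, C1337 and C1842 included.

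**Figure D2:**
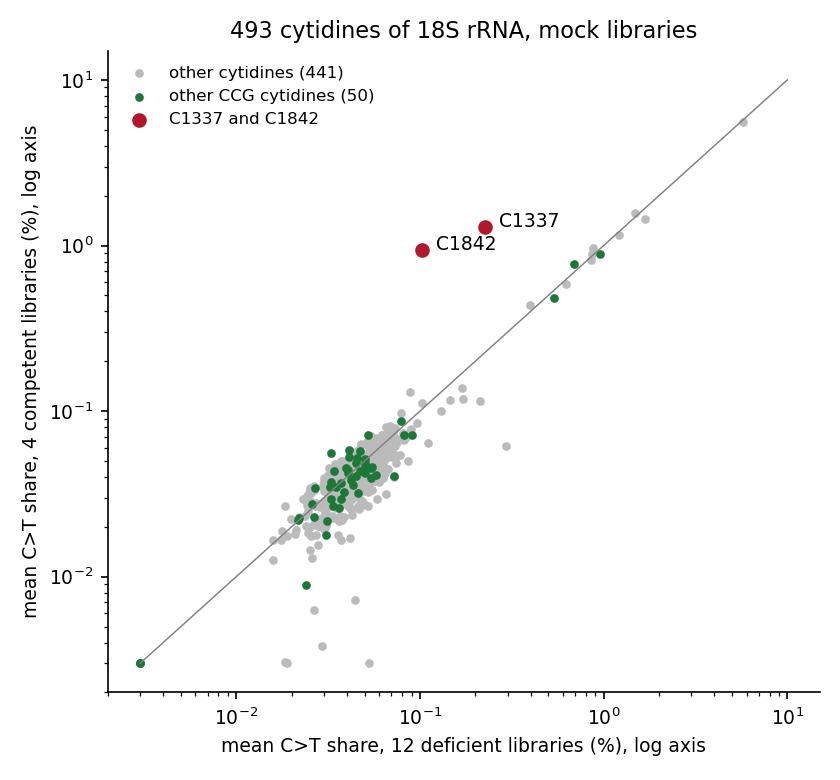
Mean C>T share (%) of each of 493 cytidines of 18S rRNA in the 12 deficient libraries (x axis) and the 4 competent libraries (y axis), on log axes, with values under 0.003 drawn at 0.003 and the line of equality. C1337 and C1842 stand above the line, at 0.225% and 0.102% in deficient and 1.30% and 0.938% in competent libraries.

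C1317, the CCG cytidine that lies before C1337, had 0.0351% T at the lowest, 0.0476% at the median and 0.0902% at the highest in deficient libraries. It had 0.105% and 0.0904% in NAT10-WT and 0.0451% and 0.0452% in Wildtype libraries. The classes overlapped, with both Wildtype libraries inside the deficient range, and the log2 odds ratio was -0.41 (SE 0.26, limma adjusted p = 0.710, exact permutation p = 0.134). NAT10-WT against Wildtype gave a log2 odds ratio of 1.07 (adjusted p = 0.265).

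U1248 was misread in many reads of every library. The sum of its 3 mismatches was 15.3% at the lowest, 18.7% at the median and 22.4% at the highest in deficient libraries, against 17.9% and 21.5% in NAT10-WT and 22.3% and 16.3% in Wildtype libraries. The 4 competent libraries lay within the deficient range. The log2 odds ratio was -0.07 with a 95% confidence interval of -0.34 to 0.21 (limma adjusted p = 0.903, exact permutation p = 0.580). T>C made up most of it, 16.4% in deficient and 17.01% in competent libraries, followed by T>A with 2.14% and 2.23% and T>G with 0.253% and 0.257%.

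C12 of the leucine and serine tRNAs, in the D arm, was taken as the sum over the genes whose bases 11 to 13 read CCG, 22 leucine and 8 serine genes. In tRNA-Leu the C>T share was 0.101% at the lowest, 0.281% at the median and 0.496% at the highest in deficient libraries, against 0.211% and 0.326% in NAT10-WT and 0.411% and 0.435% in Wildtype libraries. In tRNA-Ser it was 0% at the lowest, 0.0410% at the median and 0.113% at the highest in deficient libraries, against 0.0294% and 0.0876% in NAT10-WT and 0.0774% and 0.110% in Wildtype libraries. The 0% stood for 0 of 4447 reads in FKBP replicate 2 and 0 of 2098 in G641E replicate 2, which allow shares of up to 0.0675% and 0.143%. The classes overlapped at both sums. The log2 odds ratios were -0.38 (SE 0.31, limma adjusted p = 0.754, exact permutation p = 0.262) for tRNA-Leu and -0.92 (SE 0.52, adjusted p = 0.696, exact permutation p = 0.0923) for tRNA-Ser, whose 95% confidence interval was -2.03 to 0.19. Read at the gene with the most reads in place of the sum, tRNA-Leu turned to 0.15 and tRNA-Ser moved to -0.37, and with 2 added to each count tRNA-Ser moved to -0.50. With NAT10-WT alone as the competent class the values were -0.03 and -0.54, and with Wildtype alone -0.72 and -1.29, for tRNA-Leu and tRNA-Ser in that order, and none of these passed. A class difference at tRNA C12 was not detected in the mock libraries at this depth.

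The reduced libraries of the same genotypes were read at the same positions. NaCNBH3 libraries averaged 10.9% T in deficient and 77.4% in competent cells at C1337, 5.93% and 71.4% at C1842 and 0.114% and 1.01% at C1317. The competent mean at C1317 joined unlike genotypes, with 1.62% and 1.70% in NAT10-WT and 0.306% and 0.412% in Wildtype libraries. C1317 was kept in the fits as a named site, since its share in mock libraries was under the 0.1% that other pairs had to reach. It is not one of the known sites, and the named sites were chosen with earlier results of these data known. Its call below is therefore not independent evidence. The same fit on the 2058 pairs that also had 100 reads in all 16 NaCNBH3 libraries called these 3 as lower in deficient cells (0.146%, limma adjusted p of 7.79e-08, 7.77e-07 and 0.000652) and none as higher. Of the 3, C1337 and C1842 were also called in mock libraries, and C1317 was not. At C1337 G641E was lowest of the deficient genotypes in both treatments, 0.162% in mock and 7.79% in NaCNBH3 libraries, and NAT10(-) and libraries labelled E389L were the highest pair, with 12.7% and 12.5% in NaCNBH3 libraries. At C1842 the order differed between the treatments, with FKBP the lowest in mock libraries (0.0492%) and the highest in NaCNBH3 libraries (7.38%). tRNA-Leu C12 averaged 1.47% in deficient and 3.50% in competent NaCNBH3 libraries, and tRNA-Ser C12 0.973% and 3.29%, neither of which passed in this fit (adjusted p of 0.331 and 0.149). At U1248, NaCNBH3 libraries averaged 19.5% in deficient and 21.7% in competent cells (adjusted p = 0.707).

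Across the transcriptome 206711 positions had at least 100 reads in all 16 mock libraries, 99027 once identical copies were taken as 1. A pair is a position and 1 of the mismatch types. The pairs tested, 2491 in all, had a mean share of at least 0.1% and at least 80 mismatch reads, except that the named 18S sites were kept whatever their share, which only C1317 needed. Of these pairs 2 were called lower in deficient libraries (0.0803%) and 0 higher (0%), with 201 at an unadjusted p under 0.05. C>T was the type with the most pairs, 447, and G>A had 379 and A>G 287. Both called pairs were C>T, and no pair of the other 11 types passed. Most of the pairs lay in tRNA genes (924) and in rRNA and its precursor (814), and 183 lay in snRNAs, 120 in protein-coding mRNAs, 96 in mitochondrial tRNAs and 54 in snoRNAs. The median absolute log2 odds ratio over all pairs was 0.22, with a median SE of 0.27. The class ranges were free of overlap at 2 pairs that were lower in deficient libraries (0.0803%), the same C1337 and C1842, and at 1 that was higher (0.0401%). The number called moved to 23 without NAT10-WT replicate 1, to 11 without NAT10-WT replicate 2 and to 4 without H537A replicate 1, with C1337 and C1842 among them each time.

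**Figure D3:**
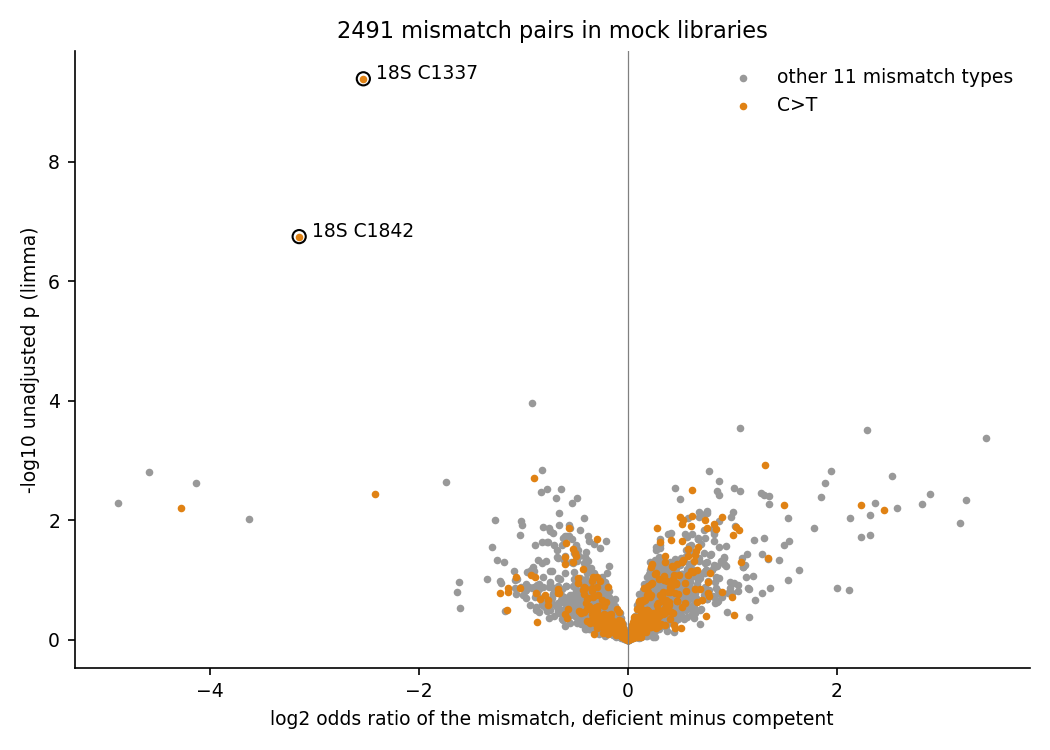
Log2 odds ratio of the mismatch, deficient minus competent (x axis), and -log10 of the unadjusted limma p (y axis) for 2491 pairs of position and mismatch type in 16 mock libraries. C>T pairs are orange and the other types grey. The circled pairs, 18S C1337 at -2.53 and C1842 at -3.14, are the 2 that passed after adjustment.

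Strong mismatches did not separate the classes. Of 415 pairs with a mean share of 10% to 90%, 24 had an unadjusted p under 0.05, 0 were free of overlap and the smallest adjusted p was 0.312. The median absolute difference between class means was 1.48 percentage points.

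The pair closest to the called ones that was higher in deficient libraries was A1912 of the spacer upstream of 18S in the rRNA precursor (5' ETS), named here after its values were seen. The A>G share there was 1.84% at the lowest, 2.93% at the median and 4.66% at the highest in deficient libraries, against 1.55% and 1.71% in NAT10-WT and 1.32% and 1.41% in Wildtype libraries. Every deficient library was above every competent one, but the log2 odds ratio of 1.07 (SE 0.23) had a limma adjusted p of 0.152. Of all 2491 pairs 0.120% were free of overlap. Any such pair has an exact permutation p of 0.0011, so a few are expected by chance among 2491. A1912 was called without H537A replicate 1 (limma adjusted p = 0.0456) and with 8 genotype coefficients (limma adjusted p = 0.00401). The latter fit takes its error from the replicates within a genotype and leaves out the spread between genotypes of a class. An A>T mismatch in the U6 snRNA gene RNU6-7, chosen in the same way, averaged 0.0834% in deficient and 0.162% in competent libraries (adjusted p = 0.0914), with NAT10-WT replicate 2 at 0.106% inside the deficient range, which ended at 0.107%. It was called without H537A replicate 1 (adjusted p = 0.0456), without NAT10-WT replicate 2 (0.0141), with Wildtype alone (0.0134) and with every position by itself (0.0495).

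Without the filter on shares, at 53796 positions with 300 reads in all 16 libraries, 53 of 161388 pairs were free of overlap between the classes (0.0328%), 36 lower and 17 higher in deficient libraries. By type they ran from 1 of 15143 C>G pairs to 9 of 15143 C>T and 9 of 14382 G>T pairs. Of the 4 C>T pairs that were lower (0.0264%), C1337 and C1842 had differences of -1.07 and -0.84 percentage points. The other 2 were MT-ND4, with 0.0365% in deficient and 0.125% in competent libraries, and a variant copy of the rDNA, with 0.0362% and 0.116%. A1912 of the 5' ETS had the largest difference of all, 1.73 percentage points.

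Mean mismatch rates over positions with under 1% mean share were close between classes in all 12 types. C>T had the highest mean, 0.0489% ± 0.00372 in deficient and 0.0451% ± 0.00175 in competent libraries, and T>A the lowest in deficient libraries, 0.00352% and 0.00366%. By exact permutation, C>T had an unadjusted p of 0.0132 and an adjusted p of 0.158 over the 12 types, and the other 11 had adjusted p of 0.686 or more. The direction of C>T was the reverse of that at C1337 and C1842: it was higher in deficient libraries. Over positions with under 0.1% mean share only, the difference passed, 0.0411% ± 0.00342 in deficient and 0.0374% ± 0.000499 in competent libraries (adjusted p = 0.0132 by exact permutation), with a deficient range of 0.0383% to 0.0505% above a competent range of 0.0369% to 0.0378%. This test too took single libraries as units, not genotypes. With NAT10-WT alone as the competent class and the 1% limit, no type was called and the smallest adjusted p by exact permutation was 0.945. C>T then averaged 0.0489% in deficient and 0.0458% in NAT10-WT libraries. With 2 competent libraries the test has too few splits for a single type to pass after adjustment over 12 types. That setting could thus not decide whether C>T differed.

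The Wildtype libraries stood apart from all tagged lines at many pairs. With 1 coefficient for each of the 8 genotypes, which leaves out the spread between genotypes of a class, 60 pairs were called (2.41%). Fisher's exact test on summed reads, which leaves out the spread between libraries, called 184 (7.39%). With Wildtype alone as the competent class 102 pairs were called, 66 higher and 36 lower in deficient libraries, whereas with NAT10-WT alone 3 were called, C1337, C1842 and a C>T pair in RNU5E-6P, a U5 pseudogene (log2 odds ratio -2.20, limma adjusted p = 0.0463). Set against the other 14 libraries, a comparison added after the data were seen, the Wildtype libraries differed at 109 pairs (4.38%), 107 besides C1337 and C1842, of which 98 were free of overlap, 62 lay in rRNA or its precursor and 17 in tRNA genes. These 107 were lower in Wildtype at 72 pairs and higher at 35. The 4 pairs named first were over 20% in both Wildtype libraries and under 0.5% in the other 14. A>G in SNORA3B, an H/ACA snoRNA, had 35.3% and 35.6% in Wildtype libraries and 0.0668% at most in the other 14. C>T in SNORA54 had 34.2% and 34.4% in Wildtype and 0.472% at most in the others, A>G in SNORA53 30.9% and 31.6% against 0.268%, and C>G in the GAPDH mRNA 26.5% and 26.7% against 0.0825%. The NaCNBH3 libraries showed the same pairs, with Wildtype means of 33.9%, 36.2%, 35.3% and 26.3%. In the other direction, C>T in the mitochondrial mRNA MT-CO2 was at 0.421% and 0.0773% in Wildtype and at 4.86% or more in the other 14 libraries, and C>G at C1704 of 28S rRNA was at 0.0102% and 0% in Wildtype and at 0.405% or more in the others. Wildtype is the only genotype without the tag, and the tag and differences between the parental cells and the edited line cannot be told apart here. C1337 and C1842 were called with either competent genotype alone.

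**Figure D4:**
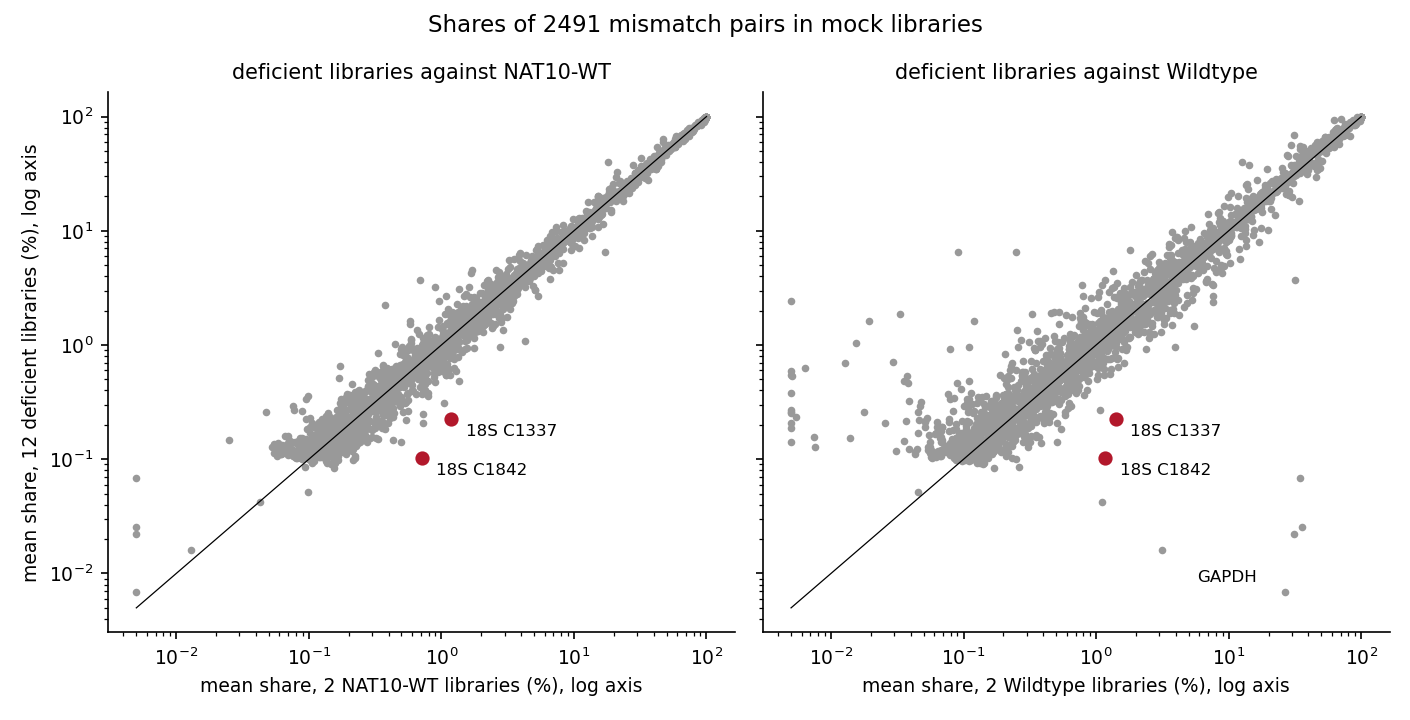
Mean share (%) of each of 2491 mismatch pairs in the 12 deficient libraries (y axis) and in the 2 NAT10-WT libraries (left panel, x axis) or the 2 Wildtype libraries (right panel, x axis), on log axes, with values under 0.005 drawn at 0.005 and the line of equality. C1337 and C1842 lie below the line in both panels, and pairs such as C>G in GAPDH lie far from it only in the Wildtype panel.

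Relative depth was compared for 616 RNAs, each as the mean depth over its positions with 100 reads in all mock libraries. No RNA was called (0 of 616, 0%, limma with Benjamini-Hochberg adjustment). An unadjusted p under 0.05 was given to 77 (12.5%), and the smallest adjusted p was 0.358. The 77 moved to 38 and 35 without Wildtype replicate 1 or 2, to 127 without NAT10(-) replicate 1, to 11 when depths were scaled by total base calls and to 3 with NAT10-WT alone. Counts of reads at 1 position of each RNA gave 0 calls with edgeR's quasi-likelihood test and 0 with DESeq2. The classes were free of overlap for 3 RNAs (0.487%), all higher in deficient libraries, RPPH1, SNORD41 and SNORD60. In these bulk samples fewer cells of a type and less RNA per cell cannot be told apart. A rise or fall is relative to the median RNA of the library, which moved by less than 0.1 on the log2 scale under each scaling tried.

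No segment of rRNA or its precursor passed the test in depth. The log2 difference, deficient minus competent, was 0.06 (SE 0.24) for the 5' ETS, 0.03 (SE 0.25) for ITS1, -0.15 (SE 0.25) for ITS2, -0.41 (SE 0.38) for the 3' ETS, -0.04 (SE 0.37) for 18S rRNA and -0.05 (SE 0.31) for 28S rRNA (adjusted p of 0.610 or more). Positions near the depth ceiling of the files were left out, so 18S rRNA rested on 251 positions and 28S rRNA on 1284, and 5.8S rRNA had too few to be tested. NAT10 itself had no position read in all 16 libraries.

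Among the small RNAs, nuclear tRNA genes were at a lower relative depth in deficient libraries at 174 of 183 genes, with a median log2 difference of -0.36 beside -0.01 over all 616 RNAs, and 30 (of the 77 in all) had an unadjusted p under 0.05. None was called. The smallest p was that of TRD-GTC3-1, an aspartate tRNA gene with 135 to 392 scaled reads per position in deficient libraries, 411 and 355 in NAT10-WT and 791 and 584 in Wildtype libraries (log2 difference -0.96, SE 0.27, adjusted p = 0.358). Its lowest competent library lay within the deficient range. Taken library by library, the median centred level of the 183 genes ran from -0.80 to 0.73 in deficient and from 0.15 to 0.43 in competent libraries, and 10 of 12 deficient libraries were below the lowest competent one. Of 16 mitochondrial tRNAs, 11 were below 0 and 5 above (median -0.09). The deepest, MT-TI and MT-TF, were at -0.14 (SE 0.18) and 0.34 (SE 0.19). MT-TN, the asparagine tRNA of mitochondria, named after its values were seen, was at 2051 to 5005 scaled reads in deficient libraries, at 3590 and 2585 in NAT10-WT and at 11287 and 8636 in Wildtype libraries (log2 difference -0.75 over both competent genotypes, adjusted p = 0.358).

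Of 143 C/D box snoRNAs, most of which guide 2'-O-methylation, 89 were above 0 and 54 below (median 0.08). Of 85 H/ACA snoRNAs and scaRNAs, most of which guide pseudouridylation, 65 were above and 20 below (median 0.14). The most deeply read C/D box members were SNORD3A (U3), with a log2 difference of -0.20 (SE 0.34), and SNORD3C, with -0.16 (SE 0.32). Those of the H/ACA list were SNORA73A, with 0.52 (SE 0.19, adjusted p = 0.358), and SNORA80E, with -0.01 (SE 0.18). Of 29 spliceosomal snRNAs 20 were below 0 (median -0.09), RNU4-2 at -0.04 and RNVU1-31 at -0.26 among them. RN7SL1 and RN7SL2, RNAs of the signal recognition particle, were both at -0.19. RPPH1, the RNA of RNase P, was at 6483 to 10993 scaled reads in deficient libraries and 5416 to 6180 in competent libraries (0.41, SE 0.18, adjusted p = 0.370).

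Messenger RNAs leaned the other way. All 17 covered mRNAs of 23 on a list of cytosolic ribosomal proteins and elongation factors were above 0, with a median of 0.51, and 10 of the 17 had an unadjusted p under 0.05, beside 12.5% of all RNAs, but 0 were called. Since the share of all RNAs under that p moved as given above, the count was not read as a difference of the list. RPS2 had 308 to 689 scaled reads in deficient libraries, 455 and 328 in NAT10-WT and 261 and 303 in Wildtype libraries (0.61, SE 0.22, adjusted p = 0.358). RPS18 had a difference of 0.19 (SE 0.25). By library the list's median level ran from -0.55 to 0.86 in deficient and from -0.46 to -0.08 in competent libraries, so the ranges overlapped. All 4 hepatocyte secretory mRNAs with enough positions were above 0 as well (median 0.37). ALB, the mRNA of serum albumin, spread over 259 to 3726 scaled reads in deficient libraries, with FKBP replicate 2 the highest and NAT10(-) replicate 1 the lowest, against 277 to 515 in competent libraries (1.12, SE 0.42, adjusted p = 0.358). APOA2 was at 0.27 (SE 0.30). The 6 complex I mRNAs and the 6 cytochrome and ATP synthase mRNAs of mitochondria had medians of 0.19 and 0.24, with MT-ND4L at 0.14, MT-ND4 at 0.24, MT-CO2 at 0.18 and MT-ATP6 at 0.15. The mitochondrial rRNAs MT-RNR1 and MT-RNR2 were at 0.22 and 0.28 (SE 0.44 and 0.43). The replication-dependent histone mRNAs were evenly divided, 9 above and 9 below (median 0.00), with H3C15 at 0.19 and H4C14 at 0.12. GAS5 and SNHG1, hosts of snoRNAs, were at 0.39 (SE 0.17) and 0.27 (SE 0.18), and GAPDH was at 0.30 (SE 0.23). Members of a list share libraries, and so these counts are not independent of each other. The median over all 183 tRNA genes was -0.43 with NAT10-WT alone and -0.26 with Wildtype alone as the competent class.

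**Figure D5:**
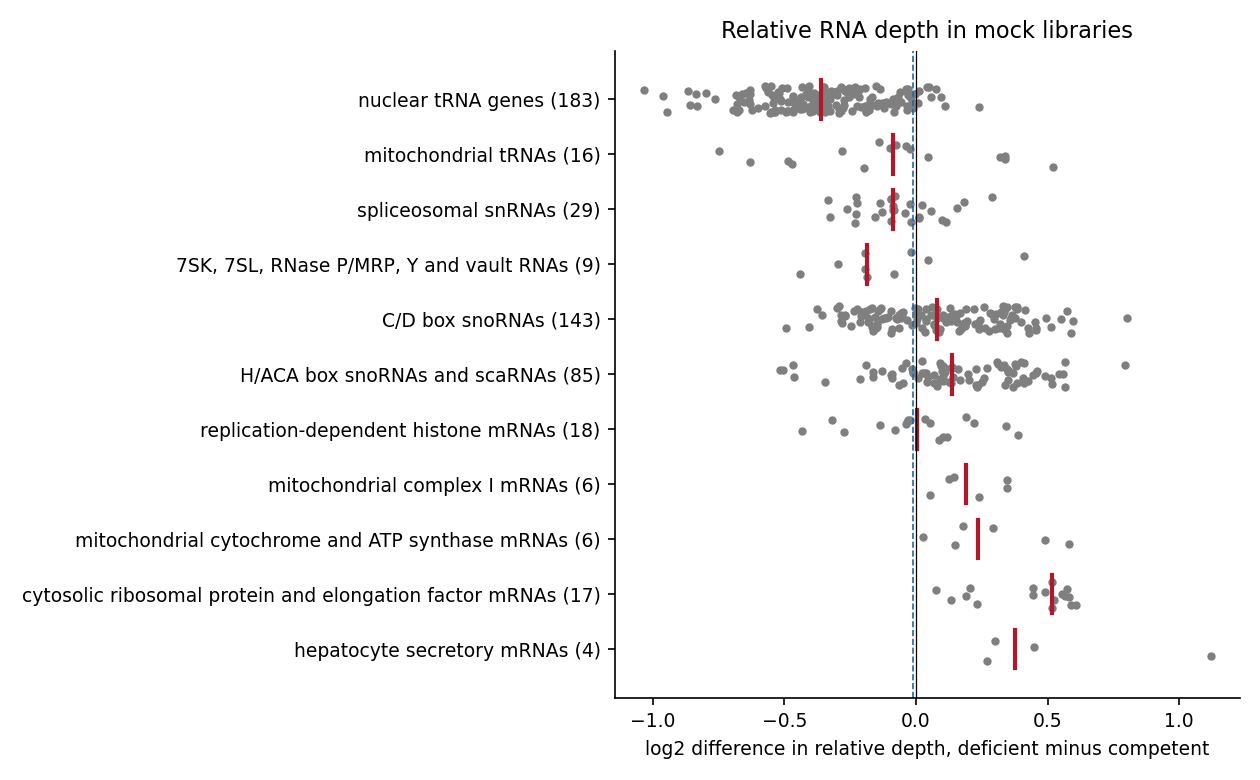
Log2 difference in relative depth, deficient minus competent (x axis), for the RNAs of 11 groups (y axis, number of RNAs in brackets). Points are RNAs, red bars the median of each group and the blue dashed line the median of all 616 RNAs. Nuclear tRNA genes have a median of -0.36 and ribosomal protein and elongation factor mRNAs one of 0.51, and no single RNA passed the test.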

How the data were processed

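Per the methods, total RNA was first partly depleted of rRNA (50% of the probes), fragmented and ligated to an adapter. Each sample was then split and treated with acid with or without NaCNBH3. Reverse transcription used Induro in the presence of 2-amino-dATP, and the cDNA received an adapter with a UMI. The authors deposited raw base counts per position and strand on hg38, after removal of PCR duplicates, for positions with at least 30 reads. SAMtools 1.6, STAR 2.7.9a, cutadapt 4.2 and UMI-tools 1.1.5 are listed in the notes of the submitters. Depths stop near 20049 reads, so rRNA counts are capped.

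From these counts, positions with at least 100 reads in all 16 mock libraries were taken. Positions with the same 31 bases of sequence were treated as 1 and read at the copy with the most reads, so C1337 and C1317 were read at 12:20551483 and 12:20551463 (+ strand) and C1842 and U1248 at GL000220.1:110919 and GL000220.1:110325. Pairs with a mean share of at least 0.1% and at least 80 mismatch reads, and the named 18S sites whatever their share, were tested with limma 3.58.1 (R 4.3.3) on log2((mismatch + 0.5)/(other + 0.5)), and a pair was called at an adjusted p under 0.05. Relative depth was the mean depth over at least 20 positions of an RNA, scaled by the median of ratios and tested with limma. edgeR 4.0.16 and DESeq2 1.42.0 on the reads at 1 position of each RNA were alternatives, as were those in the closing section. Exact permutation tests at the named sites were computed in R, over all splits of single libraries. The statistics were tested on simulated data.

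The named positions were the 18S and tRNA sites and the called pairs with the smallest adjusted p, and the named RNAs were the rRNAs, NAT10 and, for lists with no called RNA, the 2 deepest members. Others were named after their values were seen. The members and lists were chosen with earlier results of these data known. The methods describe each replicate as an independent transduction, and the labels give the replicate number as a batch, which pairs the genotypes. In the check, 25 of 28 correlations of replicate differences between genotypes were above 0.1 (0.03 to 0.42).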

Additional observations from a re-analysis of the deposited data

Results flagged for a closer look

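The relative depth of MT-TI, the isoleucine tRNA of mitochondria, had 1 competent library far from the others. MT-TI was at 4167 to 7539 scaled reads in deficient libraries, at 5470 and 6818 in NAT10-WT and at 6728 and 6776 in Wildtype libraries. The gap of NAT10-WT replicate 1 to the nearest of the other competent libraries was 0.933 of the range of the 4, above Dixon's critical value for 4 samples. It was 1 of 46 groups examined, and chance flags about 1 in 20 groups.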

How the results depend on the processing

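C1337 and C1842 were called under every alternative that kept them in the table, with log2 odds ratios of -2.71 to -2.45 and -3.39 to -2.99 when 1 library was left out and of -2.68 to -2.37 and -3.52 to -2.75 otherwise (largest limma adjusted p 0.0463, at C1842). U1248 and the tRNA C12 sums were called under none. Their direction turned for U1248 when 1 library was left out (-0.17 to 0.019) and for tRNA-Leu C12 read at the gene with the most reads (0.15). The number of called pairs, 2, ran from 2 to 23 when 1 library was left out: it was 23 without NAT10-WT replicate 1, 11 without NAT10-WT replicate 2 and 4 without H537A replicate 1. Of the 23 and 11 pairs, 22 and 10 were among the 109 at which Wildtype differed from the other 14 libraries, a comparison chosen after seeing the data. C1337 and C1842 are counted in both overlaps. Leaving out a NAT10-WT library gives Wildtype more weight in the competent class, so part of the overlap was fixed in advance. With Fisher's exact test on summed reads, which leaves out the spread between libraries, 184 pairs were called. The number called was 60 with 8 genotype coefficients, 102 with Wildtype alone and 18 with every position by itself (17 of them copies of C1337 and C1842). It was 0 with a mean share of at least 1%, which removes C1337 and C1842 by construction. For relative depth, 1 RNA was called with 8 genotype coefficients (TRD-GTC3-1, limma adjusted p = 0.0361) and 1 with Wildtype alone (MT-TN, limma adjusted p = 0.00692), in place of 0. The fit with 8 genotype coefficients leaves out the spread between genotypes of a class, for pairs and for RNAs. For the mean rate by type, 1 type (C>T) was called at positions with a mean share under 0.1%, in place of 0. The causes were not tested.

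With the replicate block, 2 pairs were called, C1337 had a log2 odds ratio of -2.53 and C1842 one of -3.14 (adjusted p = 0.000487), and 0 RNAs and 0 types were called, so it changed no call of the results it was run on. It was not run on the NaCNBH3 fit, the Wildtype pairs or the rates at positions under 0.1%. Depth limits C1842 and tRNA-Ser C12, which rest on few mismatch reads, and 4 competent libraries from 2 genotypes limit every comparison. The depth ceiling limits rRNA.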
